A study of Mus musculus with 3 samples.

Results

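MiR-221-3p and miR-222-3p, the main products of a pair of neighbouring precursors, were followed in small RNA libraries of mouse hearts on postnatal day 1 (P1), day 7 (P7) and day 28 (P28). They are the rows of the count table with the mature accessions MIMAT0000669 (miR-221-3p) and MIMAT0000670 (miR-222-3p), each present as 1 row, so that 2 of the 2049 rows and 2 of the 1900 mature accessions belong to them. The study surveyed miRNAs over the weeks in which cardiomyocytes stop dividing. All hearts were from wild type C57BL/6 mice with no treatment, and each age had 1 library. The labels give neither the sex of the mice nor whether a library came from 1 heart or from several, and they name the tissue as hearts, whereas the study describes it as ventricles. Total counts were 1944237 for the P1 library, 2465680 for P7 and 2842526 for P28.

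MicroRNAs guide the Argonaute protein to messenger RNAs, mostly through pairing of the seed, bases 2 to 8 of the miRNA, with the 3′ untranslated region (3′UTR) of the target. MiR-221 and miR-222 are best known for lowering the cyclin-dependent kinase inhibitors p27 (encoded by Cdkn1b) and p57 (encoded by Cdkn1c), which hold cells out of the division cycle. In vessels they are known from endothelial cells, where they act on the receptor Kit, and from dividing smooth muscle cells.

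Both precursors lie on the minus strand of the X chromosome. In the RefSeq annotation of build GRCm38.p6, the Mir221 hairpin spans chrX:19146294-19146388 and the Mir222 hairpin spans chrX:19146893-19146971, with 504 bases between them. In GENCODE M21, which uses the same build, 0 other genes overlap this interval. The nearest annotated gene, the noncoding Gm14636 on the same strand, lies 10010 bases upstream of Mir222, and the nearest protein-coding gene, Tex13c3, is 332449 bases away.

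The mature sequences are shown because both members share the seed by which targets are recognised. They are taken from RefSeq (GRCm38.p6), run 5′ to 3′, and carry the seed in capitals. Both members were matched by name, miR-221-3p at chrX:19146307-19146329 and miR-222-3p at chrX:19146901-19146923. Among 1679 mature mouse miRNA names in that table, 3 have this seed, and the third is miR-1928, a shorter entry encoded at chr1:74206562-74206578.
miR-221-3p: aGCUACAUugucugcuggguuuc
miR-222-3p: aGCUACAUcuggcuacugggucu
miR-1928: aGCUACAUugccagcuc

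MiR-221-3p and miR-222-3p are both 23 bases long and are identical over the 8 bases at the 5′ end. Counted from 1 at the 5′ end and with no gap, 11 positions are equal and 12 differ, beginning with U9C, in which miR-221-3p has the base written before the position. A further shared run of 6 bases starts at position 15 in miR-221-3p and at position 16 in miR-222-3p. A full-length read therefore differs between the members at many positions, although a read cut down to its 5′ end would not. How the authors treated reads that fit several places is not given in the sources used here.

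The seed match was then located in the 3′UTRs of Cdkn1b and Cdkn1c, and of Kit, Timp3 and Bbc3, which are other genes known as targets of this pair. Timp3 encodes an inhibitor of matrix metalloproteinases and Bbc3 encodes the cell death protein PUMA. For each gene the longest 3′UTR among the basic protein-coding transcripts of GENCODE M21 was searched on the transcript strand for ATGTAGC, the letters complementary to bases 2 to 8, and for the same letters followed by A (ATGTAGCA). A match of bases 2 to 7 followed by A was noted as a weaker type. Across 20910 genes with a 3′UTR, 9.45% held ATGTAGC and 3.48% held ATGTAGCA.

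The windows of the inhibitor genes and of Kit are shown as places where both members could pair alike. Matches in Bbc3 and Timp3 could be paired alike too and are given below by position only. Each window has 30 bases, runs 5′ to 3′ on the transcript (GRCm38), and carries the match in capitals. Each ends opposite base 1 of the miRNA. The Cdkn1b window is at chr6:134924409-134924438 on the plus strand, the Cdkn1c window at chr7:143458925-143458954 on the minus strand, and the Kit windows at chr5:75654970-75654999 and chr5:75656501-75656530 on the plus strand.
Cdkn1b: catctgcctctaaaagcattggATGTAGCA
Cdkn1c: cttcggctgggacctttcgttcATGTAGCA
Kit, proximal: catccttaatgatgggagatatATGTAGCA
Kit, distal: ggctttttttgtaaatattgaaATGTAGCA

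In Cdkn1b the match began 2357 bases into a 3′UTR of 3439 bases. The weaker type followed 76 bases later and again 79 bases after that. In Cdkn1c the single match began at base 95 of 688, and in Kit the matches began at bases 447 and 1978 of 2177. Bbc3 held 1 match of the longer type at base 97 of 971. Timp3 held ATGTAGC without the A at base 2383 of 3604, and the weaker type at base 3461. Long 3′UTRs hold such letters more often. Among genes whose 3′UTR had 80 to 120% of the length of that of Cdkn1b, 22.3% held ATGTAGC, and for the length of Cdkn1c the share was 4.71%. For the length of Kit, 15.3% held at least 1 such match and 1.46% held 2 or more, as Kit does. For the lengths of Timp3 and Bbc3, 23.6% and 5.92% held ATGTAGC. Because these genes were chosen as known targets, the shares do not measure how unlikely their matches are. These matches describe the annotated letters only, since the target messenger RNAs were not measured in these libraries.

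**Figure D1:**
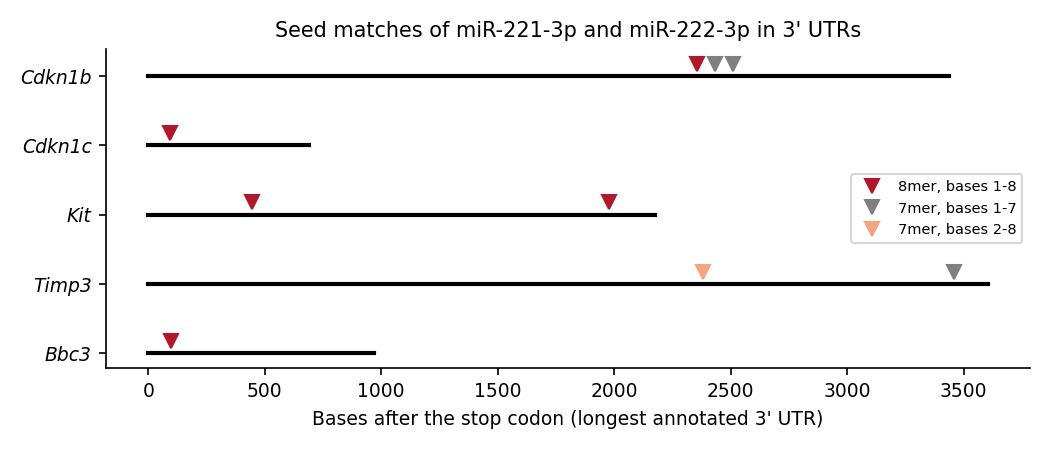
Map of seed matches shared by miR-221-3p and miR-222-3p in the longest annotated 3′UTR of 5 genes, with the distance from the stop codon in bases on the horizontal axis and the match type by colour. The 8-base matches lie near the start of the 3′UTR in Cdkn1c (base 95) and Bbc3 (base 97), and far along it in Cdkn1b (base 2357).

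Levels were expressed as CPM, the counts of an entry when the library total is set to 1000000, with 95% Wilson intervals that cover counting error only. MiR-221-3p was lowest in the P1 library, with 51.4 CPM from 100 reads (42.3 to 62.6). The P7 library gave 152 CPM from 375 reads (137 to 168), and the P28 library gave 114 CPM from 323 reads (102 to 127). The order from low to high was thus P1, P28 and P7, and the intervals of the 3 libraries did not overlap.

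MiR-222-3p had the same order at a lower level. The P1 library held 32 reads of it, or 16.5 CPM (11.7 to 23.2). The P7 library held 86 reads, or 34.9 CPM (28.2 to 43.1), and the P28 library held 70 reads, or 24.6 CPM (19.5 to 31.1). Here the intervals of P1 and P7 did not overlap, whereas that of P28 overlapped both. In both members every library was well above the level that 3 reads represent, which was between 1.06 and 1.54 CPM.

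**Figure D2:**
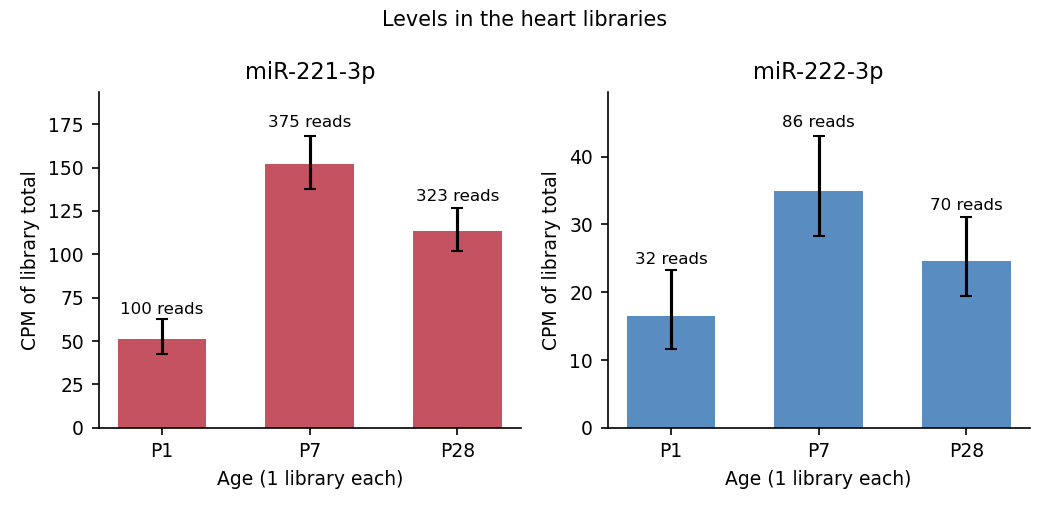
Levels of miR-221-3p (left) and miR-222-3p (right) in CPM by age, with 1 library per age, 95% Wilson intervals as bars and the reads above them. In both panels the P7 bar is the highest and the P1 bar the lowest, at 152 and 51.4 CPM for miR-221-3p and at 34.9 and 16.5 CPM for miR-222-3p.

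Neither member was abundant in the heart. Ranked by mean CPM over the 3 libraries, miR-221-3p (mean 106 CPM) was entry 166 and miR-222-3p (mean 25.3 CPM) was entry 250 of the 317 entries with at least 10 CPM on average. The rank number of both fell with age. MiR-221-3p was entry 212 of the 729 entries with a read at P1, 150 of 787 at P7 and 140 of 669 at P28. MiR-222-3p was at rank 289 at P1, 235 at P7 and 217 at P28. By rank number both therefore stood highest at P28, whereas by CPM they stood highest at P7. The list of entries with a read was shortest at P28, so rank numbers are not directly comparable between ages. Relative to the length of the list, both members stood highest at P7. Together the members took 0.00679% of the total counts at P1 (132 reads), 0.0187% at P7 (461 reads) and 0.0138% at P28 (393 reads).

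Ratios between ages are log2 ratios of CPM, computed after 0.5 reads were added to each count, and are given with 95% Clopper-Pearson intervals of the reads, which again cover counting error only. A call, higher or lower, required a CPM ratio of at least 2-fold. As each age had 1 library, these differences have no replicate check, no p-value is given, and the comparisons are between libraries rather than ages. In RNA from bulk heart tissue, fewer cells of a type and less RNA per cell cannot be told apart.

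The comparison of P7 with P1 spans the days in which mouse cardiomyocytes stop dividing, and both members were called higher at P7. MiR-221-3p had a log2 ratio of 1.56 (1.24 to 1.90), a 2.95-fold difference. MiR-222-3p had a log2 ratio of 1.07 (0.48 to 1.72), or 2.10-fold, with an interval that reaches below 2-fold. When 5 reads were added in place of 0.5, its log2 ratio was 0.96, short of a call. Of the 317 entries tested, 10.4% were called higher and 11.7% lower in this comparison, and the median log2 ratio over them was 0.015.

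The position of each member among all entries was read from the same ratios. Of the 317 entries, 5 had a larger log2 ratio of P7 to P1 than miR-221-3p, and 25 had a larger one than miR-222-3p. Among the 167 entries averaging 100 CPM or more, 1 exceeded miR-221-3p, which itself averaged just over that limit at 106 CPM. MiR-221-3p passed the limit through P7 and P28, as it had 51.4 CPM at P1. Its rank in this class is therefore not independent support. MiR-222-3p belongs to the 150 entries between 10 and 100 CPM, of which 11 exceeded it. Among all 317 entries, miR-221-3p thus lay close to the upper end of the distribution, while miR-222-3p had 91.8% of entries below it.

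At P28 compared with P1, miR-221-3p was called higher and miR-222-3p was not. The log2 ratio of miR-221-3p was 1.14 (0.82 to 1.48), or 2.20-fold, with 29 of 317 entries above it. That of miR-222-3p was 0.57 (-0.042 to 1.23), or 1.48-fold, with 61 entries above it, and its interval includes no difference. In this comparison 12.3% of entries were called higher and 40.7% lower. The median over all entries was -0.64, so that a typical entry took a smaller share of the P28 library than of the P1 library, which was not so for either member. Relative to that median, the log2 differences were 1.78 for miR-221-3p and 1.21 for miR-222-3p.

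Between P7 and P28 neither member reached a 2-fold difference. The log2 ratio of P28 to P7 was -0.42 (-0.64 to -0.20) for miR-221-3p and -0.50 (-0.98 to -0.030) for miR-222-3p. Of all entries, 3.15% were called higher and 39.1% lower at P28, and the median was again -0.64. The ratios of the members lay above that median by log2 differences of 0.22 and 0.14, and 133 and 140 of the 317 entries had larger ratios. This put them near the middle of the distribution at that step, in contrast to the step from P1 to P7.

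**Figure D3:**
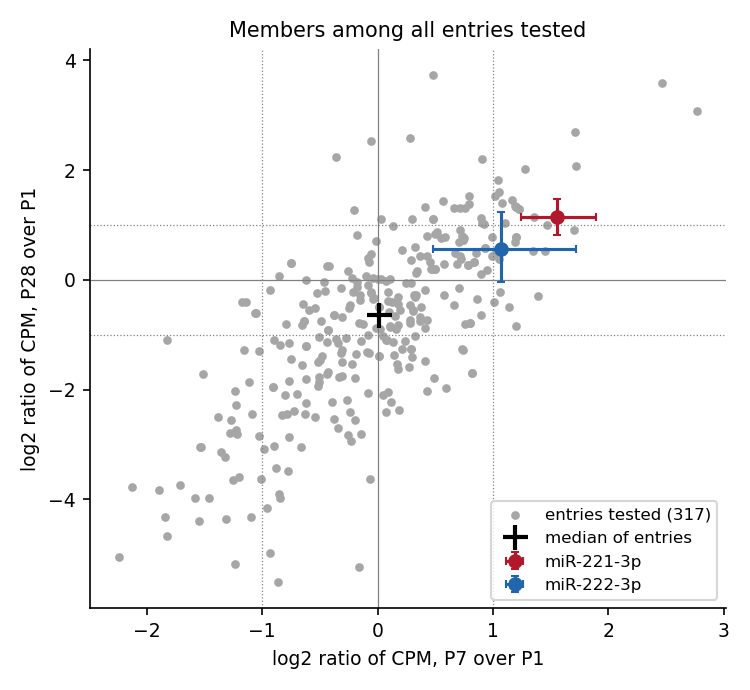
Log2 ratio of CPM at P7 over P1 (horizontal) against that at P28 over P1 (vertical) for the 317 entries tested, with the members in colour, their 95% Clopper-Pearson intervals as bars, and dotted lines at 2-fold. MiR-221-3p (1.56 and 1.14) lies beyond the 2-fold line on both axes and miR-222-3p (1.07 and 0.57) on the horizontal axis alone, while the median entry (cross) is at 0.015 and -0.64, and both axes share the P1 library.

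The direction of the step from P7 to P28 depended on the scaling. When libraries were scaled by TMM, which assumes that most entries do not change, the log2 ratio of P28 to P7 became 0.14 for miR-221-3p and 0.057 for miR-222-3p. With the size factors of DESeq2, which rest on the same assumption, it became 0.23 and 0.15. These scalings moved the median entry by 0.56 and 0.65 in that comparison, in which the calls over all entries were 10 higher and 124 lower by library totals, 40 and 72 under TMM, and 46 and 63 under DESeq2 size factors. The same scalings raised the log2 ratio of P28 to P1 to 1.76 (TMM) and 1.77 (DESeq2) for miR-221-3p, and to 1.19 and 1.20 for miR-222-3p, which then passed 2-fold. Over all entries, 39 were called higher and 129 lower at P28 against P1 by library totals, compared with 76 and 83 under either of these scalings. The ratio of P7 to P1 moved little, to 1.63 and 1.54 for miR-221-3p and to 1.14 and 1.05 for miR-222-3p.

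By library totals, the order P1, P28, P7 from low to high was shown by 41 of the 317 entries (12.9%), both members among them. Under TMM both members joined the 98 entries (30.9%) with the order P1, P7, P28 from low to high, and under DESeq2 size factors they were among 93 such entries (29.3%). With totals that leave out the 10 most abundant entries, both members kept the order P1, P28, P7, shown by 39 entries (12.3%). P1 was the lowest of the 3 libraries for both members under each of these scalings. The place of P28 relative to P7 depended on the scaling.

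**Figure D4:**
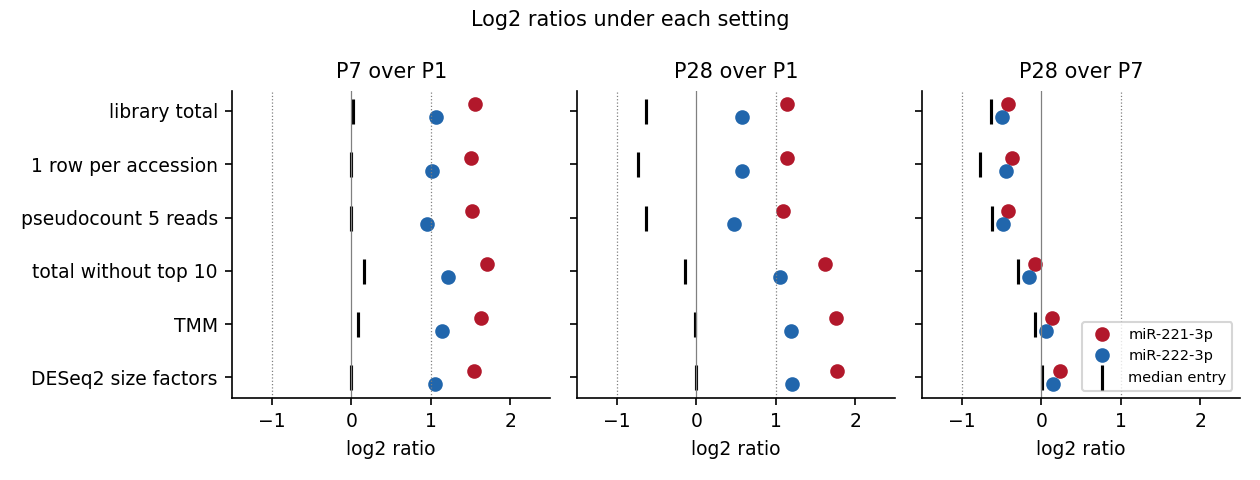
Log2 ratios of miR-221-3p and miR-222-3p, with the median entry as a black mark, for P7 over P1, P28 over P1 and P28 over P7 under 6 settings, with dotted lines at 2-fold. The points at P7 over P1 stay between 0.96 and 1.70 in all 6 settings, whereas those at P28 over P7 cross 0 under TMM and DESeq2 size factors.

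The ratio of the members to each other does not depend on how libraries are scaled. MiR-221-3p had 3.13 reads for each read of miR-222-3p in the P1 library (95% Clopper-Pearson interval 2.08 to 4.81). This ratio was 4.36 in the P7 library (3.44 to 5.58) and 4.61 in the P28 library (3.55 to 6.06). MiR-221-3p was the more abundant member in reads in every library, with 75.8% of the reads of the pair at P1, 81.3% at P7 and 82.2% at P28. Reads of different miRNAs need not reflect equal numbers of molecules, so this compares reads.

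The fold over P1 was larger for miR-221-3p than for miR-222-3p at both later ages, but this difference between the members was within counting error. The odds ratio of the pair between libraries was 1.39 for P7 against P1 (95% exact conditional interval 0.85 to 2.26), 1.48 for P28 against P1 (0.89 to 2.42) and 1.06 for P28 against P7 (0.74 to 1.53). Each interval includes 1. The intervals against P1, where miR-222-3p had 32 reads, reach past 2, so a ratio up to 2-fold higher at P7 or P28 lies within counting error of these values.

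**Figure D5:**
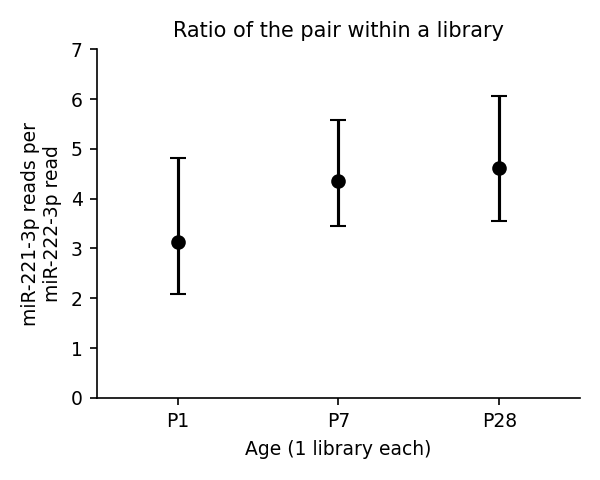
Reads of miR-221-3p for each read of miR-222-3p in the library of each age, with 95% Clopper-Pearson intervals as bars. The points are at 3.13 (P1), 4.36 (P7) and 4.61 (P28), and all 3 intervals overlap.

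Entries with a course most like that of each member were sought among 146 other mature entries averaging 100 CPM or more, by the Euclidean distance between their pairs of log2 ratios (P7 over P1 and P28 over P1). By this measure the members were 0.75 apart. The entry nearest to miR-221-3p, MIMAT0000656, lay at a distance of 0.20, with 93.6, 240 and 207 CPM from P1 to P28. The entry nearest to miR-222-3p, MIMAT0000137, lay at 0.14, with 522, 996 and 776 CPM. The 5 nearest entries lay within 0.51 of miR-221-3p and within 0.25 of miR-222-3p, and each member had entries nearer to it than its partner. With 146 entries to choose from and a single partner, nearer entries were likely to be found. The distance between the members also carries the counting error of miR-222-3p, which had 32 reads at P1. It therefore does not show that the members follow different courses. The ratios share the P1 library, and the table gives no names for other accessions.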

How the data were processed

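Small RNA libraries, prepared with a NEBNext kit per the labels, were available from hearts at 3 ages, with 1 library per age. The deposited table holds raw read counts per miRBase accession, made by the authors without normalization. The submitters' processing notes name bcl2fastq, TopHat and mm10. The miRBase release and the treatment of strand are not given in the sources used here. Columns were matched to ages by the age code in their names.

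The members and lists were chosen with earlier results of these data known. The accessions of both members were given with their names. The table pairs no other accession with a name, so the 5p arms, the stem-loops, miR-1928, the planned list of other miRNAs acting on p21, p27 and p57, and the planned cell type markers were not analysed here. The tissue label was therefore not checked against marker miRNAs.

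Counts were divided by library totals to give CPM. These totals sum all 2049 rows, including 14 stem-loop rows and 12 rows within 1% of another accession's counts in every library. The 12 were sought among mature rows with at least 300 reads in all. Further rows of the same accession, and repeats with fewer reads, are not among the 12. Some reads may therefore be counted in several rows. Entries were compared where their average reached 10 CPM, and a call was a CPM ratio of at least 2-fold. The 317 entries tested include such rows, and with 1 row per mature accession 283 were tested. The quasi-likelihood test of edgeR could not be fitted with 1 library per age. Depths of 1944237 to 2842526 counts put 3 reads at 1.06 to 1.54 CPM. No molecular identifiers are stated, so intervals and floors cover counting error only. The named entries were both members, miRNAs of the same seed and the 5 entries nearest in course to each member, of which the nearest is printed. The target genes were chosen from textbook knowledge before their matches were searched. The 5 printed are not the whole choice, since 1 item is not reported here, so how many of them hold a match is not a measure of target genes in general. Ratios and intervals were tried on simulated counts with counting error alone and changes larger than those of the members. This does not address variation between hearts or ratios near 2-fold. Alternatives were TMM (edgeR 4.0.16), size factors of DESeq2 1.42.0, a pseudocount of 5 reads, totals that leave out the 10 most abundant entries, 1 row per mature accession, no filter and a filter at 100 CPM. Intervals were computed with scipy 1.17.1, tables with pandas 2.3.3 under Python 3.11.15, and scalings under R 4.3.3.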

Additional observations from a re-analysis of the deposited data

How the results depend on the processing

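Of 33 member values under an alternative, 25 stayed within the counting interval and 8 did not. The 33 include the ratio of the members within each library, tried with the larger pseudocount alone, which scaling cannot move. All 8 compared P28 with an earlier age under a different scaling of the libraries. At P28 over P1, miR-221-3p moved to 1.76 under TMM, 1.77 under DESeq2 size factors and 1.63 when the 10 most abundant entries were left out of the total. At P28 over P7, miR-221-3p moved to 0.14, 0.23 and -0.079 under the same 3 scalings, and miR-222-3p to 0.057 under TMM and 0.15 under DESeq2 size factors. TMM and DESeq2 size factors by construction place the typical entry near no change. Among values within the interval, the 2-fold call of miR-222-3p at P7 over P1 was lost with a pseudocount of 5 reads (0.96). At P28 over P1 it passed 2-fold under TMM (1.19), DESeq2 size factors (1.20) and the reduced total (1.06).

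Of 42 counts of called entries under an alternative, 20 stayed within 1.5 times and 22 did not. Every count under a changed filter was among the 22. A changed filter alters the number of entries tested, so these counts do not compare directly with those over 317 entries. For P28 over P1, both TMM and DESeq2 size factors put 76 entries higher and 83 lower, and the reduced total put 65 higher. For P28 over P7, the calls were 40 higher and 72 lower by TMM, 46 higher and 63 lower by DESeq2 size factors, and 27 higher by the reduced total. The filter at 100 CPM left 167 entries. Of these, 18 were higher and 18 lower for P7 over P1, 19 higher and 55 lower for P28 over P1. For P28 over P7, 3 were higher and 50 lower. Without a filter, which admits entries with few reads, 945 entries were tested. Of these, 225 were higher and 206 lower for P7 over P1, 183 higher and 390 lower for P28 over P1. For P28 over P7, 128 were higher and 390 lower. For P7 over P1, 47.1% of the calls were higher by library totals and 62.2% by the reduced total.

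No paired analysis was possible because a single library stands for each age, and for that reason no replicate could be left out. With 32 reads in the P1 library, the counting interval of miR-222-3p at P7 over P1 ran from 1.40-fold to 3.29-fold.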
